A study of Mus musculus with 14 samples.

Results

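The H3K4me3 peaks of Ezh2 knockout medulloblastoma cells were compared with those of Cas9 control cells. Every peak of the 2 lists was taken, 14363 of Cas9 cells and 14417 of the knockout, which made 28780 of the 201448 regions in the 11 lists of the series. The series holds 14 mouse ChIP-seq libraries, in which chromatin bound by an antibody is recovered and sequenced. Of these, 8 came from tumour cells and the others from neurospheres, which are floating cultures of neural cells. Cas9 cells had the genotype p53-/-;p18-/-, and knockout cells had p53-/-;p18-/- ;Ezh2-/-. Both overexpressed Myc and served as a model of Group 3 medulloblastoma, a childhood tumour of the cerebellum. Per the labels, tumoursphere cells were infected with retroviral vectors, sorted for the RFP+/GFP+ fraction and expanded, and the transplantation into immunodeficient CD-1 nu/nu mice that the protocol goes on to describe leaves unstated at which stage chromatin was taken. The labels do not say whether either kind of cell was 1 clone. Both H3K4me3 libraries were made with the same Abcam antibody.

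H3K4me3 is a histone mark laid down by Trithorax-type methyltransferases at the start sites of active and poised genes, and it is among the most widely used marks of promoters. Ezh2 is the enzyme of Polycomb repressive complex 2, which writes H3K27me3, a mark of silenced developmental genes. Promoters that carry both marks are called bivalent. They are well known from stem cells and are thought to hold genes in a poised state. H3K27ac marks active promoters and enhancers and cannot sit on the same histone tail as H3K27me3.

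Each group had 1 library, so no difference below has a replicate check and none was tested. Intervals in parentheses are 95% intervals that cover counting error over peaks only, and peaks of 1 library are not replicates of a condition. Depth is unknown: no read totals come with the lists. The score of a peak has no stated meaning and ran from 7 to 98 in Cas9 cells and from 7 to 77 in the knockout. It was therefore used only as a percentile rank within its own list, where 100 is the highest. As a check of the labels, the covered length of H3K27me3 regions was 18.6 Mb in the knockout, against 71.4 Mb in Cas9 cells. All positions are in mouse build mm9. Genes and sequences at the peaks are not given, because no annotation or genome of that build was used here.

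Both lists held nearly the same number of peaks, and the knockout peaks were narrower over most of the width range. The median width was 601 bp in Cas9 cells, with quartiles of 345 and 889 bp. In the knockout it was 516 bp, with quartiles of 309 and 773 bp. The narrow end was bounded in the same way in both lists: the narrowest peak measured 180 bp, a width shared by 437 Cas9 peaks and 485 knockout peaks, and no gap between peaks was under 51 bp. Width followed rank in both lists, with a Spearman correlation across peaks of 0.788 in Cas9 cells (n = 14363) and 0.766 in the knockout (n = 14417). Peaks of 1 list share a library, so these values only describe it.

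The wide classes held fewer peaks in the knockout, and the narrow classes more. Peaks from 180 to 250 bp made up 14% (13.4 to 14.5) of the Cas9 list and 15.9% (15.3 to 16.5) of the knockout list. From 250 to 500 bp the shares were 26.3% (25.6 to 27.1) and 32.1% (31.3 to 32.9). The class from 500 to 1000 bp was the largest in both lists and close in size, with 5860 and 5724 peaks. From 1 to 2 kb the Cas9 list had 2552 peaks, or 17.8% (17.2 to 18.4), and the knockout list 1702, or 11.8% (11.3 to 12.3). At 2 kb or more the numbers were 165 and 72. The ratio of numbers moved further from 1 as the width limit was raised: it was 0.586 for peaks of at least 1500 bp (691 and 405), 0.436 at 2000 bp and 0.333 at 3000 bp, where 12 and 4 peaks were left.

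**Figure D1:**
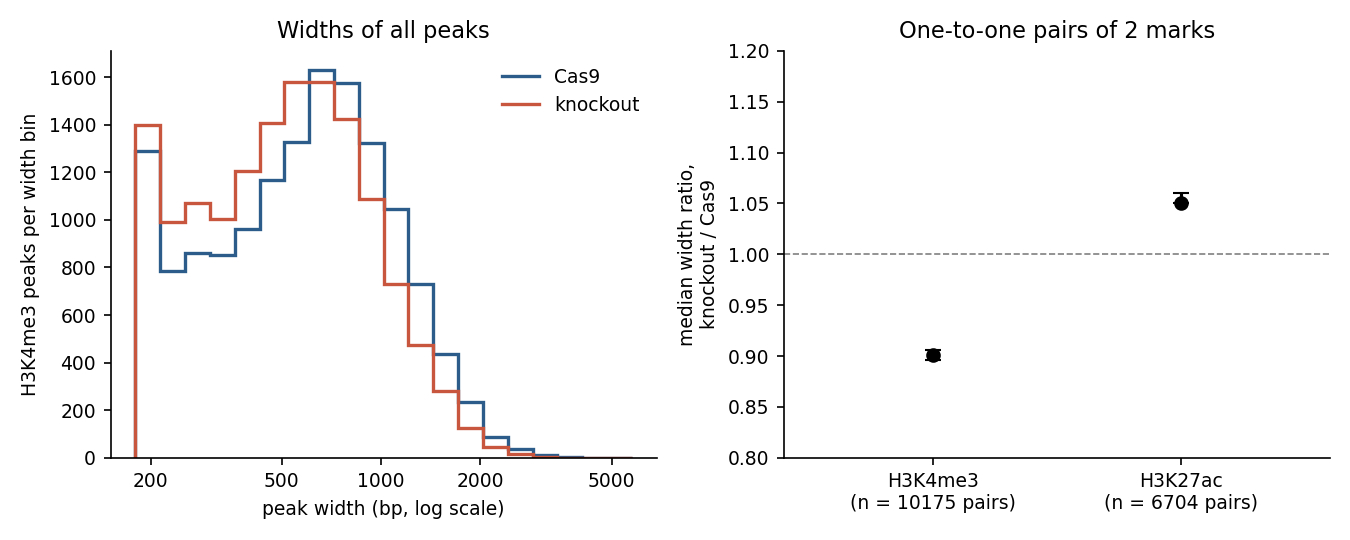
The left plot shows the number of H3K4me3 peaks per width bin (log scale, bp) in each list, with the knockout line above the Cas9 line under about 500 bp and below it over 1000 bp. The right plot shows the median of the width ratio within one-to-one pairs, knockout over Cas9, with its 95% interval over pairs: 0.901 for H3K4me3 and 1.05 for H3K27ac, on an axis that does not start at 0.

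The wide peaks were nearly all found in the other list, and the narrow ones often were not. Of the Cas9 peaks from 180 to 250 bp, 43.5% (41.4 to 45.7) shared at least 1 bp with a knockout peak, against 98.0% (97.6 to 98.3) of those from 500 to 1000 bp and 99.9% (99.7 to 100) of those from 1 to 2 kb. The knockout list gave 67.0% (65.1 to 68.9), 98.1% (97.7 to 98.4) and 99.5% (99.1 to 99.8) in the same classes. The widest peak of each list lay at one place, on chromosome 8. There a single Cas9 peak of 4878 bp ran from 123605876 to 123610753 with a rank of 90.1, and 3 knockout peaks overlapped it, the largest of which was the widest of its list at 3668 bp, from 123606118 to 123609785, with a rank of 93.0. This place carried H3K27ac in both kinds of cell and H3K27me3 in Cas9 cells alone. The next Cas9 peak in width lay on chromosome 11 from 102177556 to 102181539, measured 3984 bp, ranked at 99.5 and was met by 2 knockout peaks.

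Overlap also followed rank. Up to rank 10, 39.9% (37.4 to 42.4) of Cas9 peaks and 60% (57.5 to 62.3) of knockout peaks were overlapped. From rank 40 to 50 the shares were 97.1% (96.1 to 97.8) and 96.4% (95.3 to 97.3), and from rank 50 upward they stayed between 98.8% and 100% in both lists. A place above rank 80 was mostly kept. Of the 2953 Cas9 peaks above rank 80, 74.1% had a knockout partner above rank 80, 681 had one from rank 60 to 80 and 1 had none. Of the 3126 up to rank 20, 51.2% had no partner and 58 had one above rank 80. These counts include peaks that met more than 1 peak of the other list or shared their partner. Only 14 pairs of peaks that overlapped only each other rose by 50 points or more in the knockout. Most of the 58 were thus not such pairs, and they do not show single low peaks that became high ones.

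**Figure D2:**
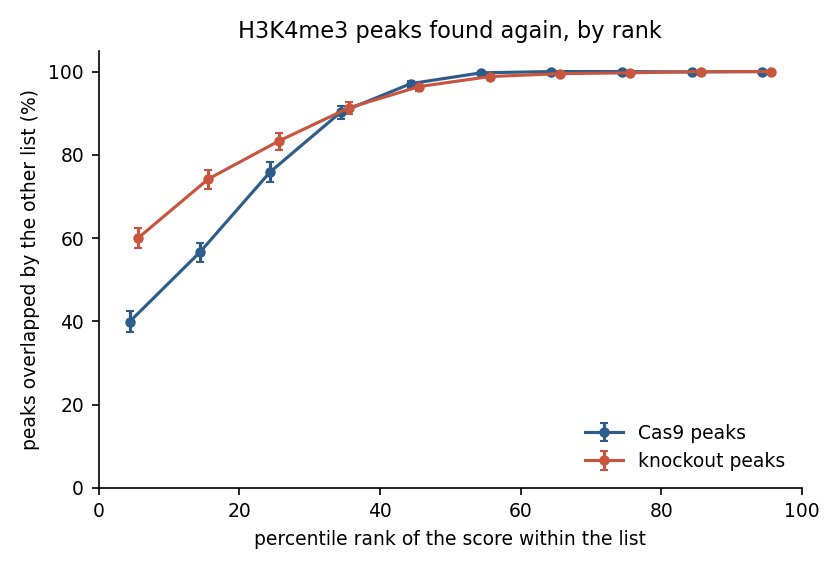
The share of peaks overlapped by the other list is plotted in percent against the percentile rank of the score, in bins of 10 points, with Wilson 95% intervals. Below rank 30 the knockout peaks (60% in the lowest bin) were found again more often than the Cas9 peaks (39.9%), and above rank 50 both lists lay at or close to 100%.

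Peaks of one list alone were few, narrow and low in rank. Cas9 cells alone had 2090 peaks, 14.6% of the list, with a median width of 238.5 bp and a median rank of 12.2. The knockout alone had 1418, 9.84% of its list, with a median width of 241 bp and a median rank of 13.5. Most of the Cas9 peaks alone were side peaks. Of the 2090, 1342 (64.2%, 62.1 to 66.2) lay within 2 kb of a knockout peak, and 1269 of these 1342 stood beside a peak of their own list that was itself overlapped, at a median gap of 191 bp. The side peak scored lower than that peak in 95.3% of cases. In the knockout the near class was smaller, 599 of 1418 (42.2%, 39.7 to 44.8).

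The peaks of the knockout that lay far from any Cas9 peak lay mainly in H3K27me3 regions of Cas9 cells. More than 10 kb from the other list lay 717 of the 1418 knockout peaks (50.6%, 48.0 to 53.2) and 588 of the 2090 Cas9 peaks (28.1%, 26.2 to 30.1). Of these 717, 500 overlapped an H3K27me3 region of Cas9 cells, or 69.7% (66.3 to 73.0). Of the 588, 114 did, or 19.4% (16.4 to 22.8). Over the whole lists the shares were 15.7% of knockout peaks and 12.5% of Cas9 peaks. From rank 10 to 20 they were 23.2% and 20.6%. All peaks alone within 2 kb of the other list, side peaks or not, overlapped such regions in 23.4% (20.2 to 26.9) of the knockout cases. In the Cas9 cases the share was 6.04% (4.88 to 7.44). H3K27ac of the knockout overlapped 16.5% (13.9 to 19.3) of the 717 peaks. This was below the 61.9% of all knockout peaks and the 23.6% of those from rank 10 to 20. The share in H3K27me3 grew with rank among knockout peaks alone, from 42.1% (39.1 to 45.2) of the 1006 up to rank 20 to 59.9% (54.5 to 65.0) of the 334 from rank 20 to 40 and 74.6% (63.1 to 83.5) of the 67 from rank 40 to 60. Above rank 50 there were 31 knockout peaks alone, of which 24 overlapped H3K27me3 of Cas9 cells, and 5 Cas9 peaks alone, of which 0 did.

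Most knockout peaks alone were scattered, and a few places held several. In windows of 100 kb, the 1418 peaks lay in 1188 windows, of which 1034 held 1 and 8 held 5 or more, with 63 peaks between them. The fullest held 14 such peaks, on chromosome 11 from 96100001 to 96200000, where the knockout list had 14 peaks in all and the Cas9 list 0. The next held 13 on chromosome 6 from 52100001 to 52200000, also with 0 Cas9 peaks and with a median rank of 31.2. Windows on chromosome 11 from 23900001 to 24000000 and on chromosome 15 from 74300001 to 74400000 held 8 and 7, again with 0 Cas9 peaks. All 42 peaks of these 4 windows overlapped H3K27me3 of Cas9 cells, and 15 of them overlapped H3K27ac of the knockout. Peaks of Cas9 cells alone never exceeded 6 per window. Their fullest windows, on chromosome 13 from 21300001 and from 22000001 and on chromosome 3 from 89200001, held 6 each, overlapped no H3K27me3 region and also held 5, 4 and 4 knockout peaks.

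The highest-ranking peaks of one list alone were not all of one kind. In Cas9 cells alone, the first lay on chromosome 14 from 120877604 to 120878436, at rank 81.7 and 200755 bp from the nearest knockout peak, and it carried H3K27ac in both kinds of cell. The second, on chromosome 9 from 107775267 to 107775541, ranked at 58.7 and lay 139 bp from a knockout peak. In the knockout alone, the first was a peak of 188 bp on chromosome 8 from 125951826 to 125952013, at rank 76.7 and 239 bp from a Cas9 peak. It overlapped H3K27me3 in both kinds of cell. The third, on chromosome 6 from 52141115 to 52141868, measured 754 bp, ranked at 74.5 and lay 448045 bp from the nearest Cas9 peak. It overlapped H3K27me3 in both kinds of cell and H3K27ac in the knockout.

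Splitting of Cas9 peaks was 2.65 times as frequent as joining. A peak was called split when 2 or more knockout peaks overlapped it and overlapped no other Cas9 peak, and joining was the reverse. In all, 1038 Cas9 peaks were split, 7.23% (6.81 to 7.66) of the list, and 391 knockout peaks joined Cas9 peaks, 2.71% (2.46 to 2.99) of theirs. Of the split peaks 969 gave 2 pieces, 65 gave 3 and 4 gave 4. The whole peak had a median width of 1174 bp and a median piece 394 bp. The gap that opened was small, with a median of 110 bp, and 69.1% of gaps were under 150 bp. It lay in the middle 50% of the peak in 71.2% of cases, and the smallest piece was 0.474 times as wide as the largest at the median. The highest piece kept the rank of the whole, at a median of 67.2 against 68.5.

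Since wide peaks have more room for a gap, both events were also counted by width. From 500 to 1000 bp, 5.65% (5.09 to 6.27) of Cas9 peaks were split and 3.02% (2.61 to 3.50) of knockout peaks joined others. From 1 to 2 kb the shares were 22.3% (20.7 to 23.9) and 10.2% (8.82 to 11.7), and at 2 kb or more 56.4% (48.7 to 63.7) and 15.3% (8.75 to 25.3). Splitting was thus the more frequent event in each of these classes. The other marks differed between the events, but they also varied with width. H3K27me3 of Cas9 cells overlapped 8.57% (7.02 to 10.4) of split peaks and 20.5% (16.8 to 24.7) of joining peaks, beside 12.5% (12.0 to 13.1) of all Cas9 peaks and 15.7% (15.2 to 16.3) of all knockout peaks. From 500 to 1000 bp and from 1 to 2 kb, it overlapped 10.8% and 8.19% of Cas9 peaks. In the same classes it overlapped 13.6% and 12.9% of knockout peaks. The split share was thus like that of peaks of similar width, and the joining share was above it. H3K27ac of Cas9 cells overlapped 72.8% (70.0 to 75.5) of split and 61.4% (56.5 to 66.1) of joining peaks. It overlapped 49.5% of all Cas9 peaks and 50% of all knockout peaks. In the same 2 width classes the shares were 61.6% and 84.1% of Cas9 peaks, and 65.8% and 82.3% of knockout peaks.

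The highest-scoring Cas9 peak among those split into 4 was on chromosome 6, from 145810951 to 145813858, with 2908 bp and a rank of 85.7. Its 4 knockout peaks, the highest at rank 76.7, ran from 145811233 to 145814368, past its upper end. Another was on chromosome 16, where a Cas9 peak of 2367 bp from 10784041 to 10786407 at rank 81.7 faced 4 knockout peaks that began and ended within 100 bp of the same places, from 10783997 to 10786340. Both overlapped H3K27ac in both kinds of cell and no H3K27me3. The knockout peak that joined the most Cas9 peaks lay on chromosome 16 from 85801354 to 85803245, was 1892 bp wide and covered parts of 4 Cas9 peaks, at rank 74.5 against a highest of 66.5.

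**Figure D3:**
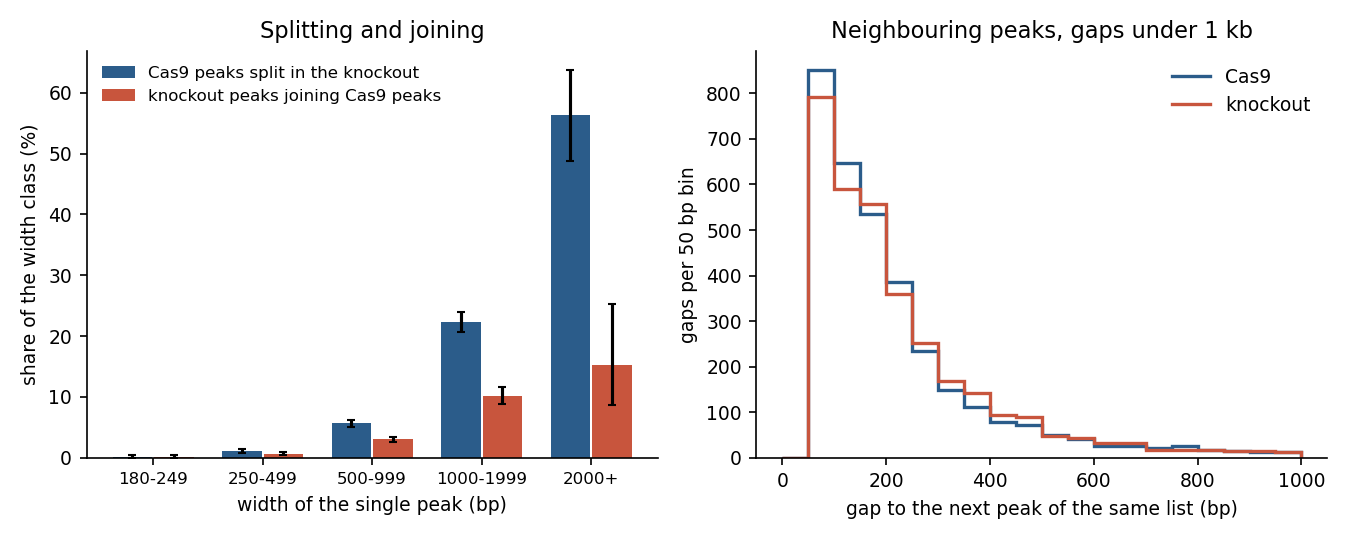
The left plot gives the share of peaks (percent, with Wilson 95% intervals) that were split or that joined others, by width of the single peak: at 2 kb or more 56.4% of Cas9 peaks were split and 15.3% of knockout peaks joined others. The right plot counts the gaps to the next peak of the same list in bins of 50 bp up to 1 kb, and the counts of both lists fall in a similar way from the smallest gap of 51 bp.

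Close neighbours were about equally common in the full lists. In Cas9 cells 6252 peaks (43.5%, 42.7 to 44.3) had another peak of their list within 2 kb, and in the knockout 6218 (43.1%, 42.3 to 43.9). Within the upper 50% of scores the shares were far smaller and in the other order, 8.88% and 10.2%. In the full lists the close neighbours formed 2277 and 2290 pairs, 411 and 388 runs of 3, and 81 and 74 runs of 4. The gap between neighbours had a median of 170 bp in Cas9 cells and 180 bp in the knockout, and 76.8% and 74.3% of gaps were under 300 bp. Within a pair 1 peak was usually the larger. The narrower and the wider peak had median widths of 288 and 753 bp in Cas9 cells and 271 and 661.5 bp in the knockout. The lower score was 46.5% and 54.5% of the higher one at the median. The higher peak came first along the chromosome in 1124 pairs and second in 1112 in the Cas9 list, and in 1111 and 1122 in the knockout list. Pairs were seldom in H3K27me3: 9.09% (7.98 to 10.3) of Cas9 pairs overlapped it in Cas9 cells, against 15.8% (15 to 16.6) of peaks with no neighbour. H3K27ac of Cas9 cells overlapped 71.8% (70.0 to 73.7) of pairs and 53.7% (52.6 to 54.8) of peaks with no neighbour, but a pair spans more sequence, with a median of 1306 bp.

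The longest run was the same in both lists, with 10 peaks each on chromosome 5, from 143575516 to 143585246 in Cas9 cells and from 143575589 to 143585056 in the knockout. It overlapped H3K27ac in both and no H3K27me3. A run of 7 Cas9 peaks on chromosome 17 from 86083715 to 86092803 also met 7 knockout peaks. Other long runs differed in number. On chromosome 13 a run of 9 knockout peaks from 63663264 to 63674591, with a highest rank of 98.7, overlapped 5 Cas9 peaks with a highest rank of 81.7. On chromosome 13 from 81022317 to 81025837, 7 Cas9 peaks were overlapped by 4 knockout peaks.

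Pooling the peaks of both lists within 2 kb gave 11629 places, and at this scale the lists were more alike. Both lists had a peak at 10227 places, or 87.9%, Cas9 cells alone at 667 and the knockout alone at 735. Of the 735, 65.0% (61.5 to 68.4) overlapped H3K27me3 of Cas9 cells, against 17.8% (15.1 to 20.9) of the 667 and 13.9% of the 10227. The highest peak of a place had a median rank of 13.5 at the 735, 16.2 at the 667 and 64.5 at the 10227. The 13.9% is thus not a baseline at equal rank. Among the 10227 shared places the number of peaks was the same at 74.2%, higher in Cas9 cells at 1323 and higher in the knockout at 1311. The marked length per place had a median of 828 bp in Cas9 cells and 715 bp in the knockout, with a median ratio of 0.884, and it was shorter in the knockout at 70.8% of shared places. The equal counts of peaks thus came with less marked length.

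The balance hid exchanges in both directions. Of 2275 places with a pair of Cas9 peaks, 1059 also had 2 knockout peaks, 981 had 1, 187 had 3 or more and 48 had none. From the other side, of 2293 places with a pair of knockout peaks, 983 had 1 Cas9 peak and 51 had none. The 2 kinds of exchange were unlike. Where a Cas9 pair faced a single knockout peak, only 1 of its members was overlapped at 716 of 981 places, and of the 709 of these with unequal scores it was the higher-scoring member in 674 (95.1%). Both members were overlapped at 258. Where a knockout pair faced a single Cas9 peak, both members overlapped it at 682 of 983 places and 1 at 301. Among pairs that faced a single peak, a Cas9 pair thus mostly lacked its lower member in the knockout, and a knockout pair mostly lay on 1 Cas9 peak.

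Where a pair faced a pair and each member met its counterpart, at 893 places, the valley was wider in the knockout. The gap had a median of 185 bp in Cas9 cells and 232 bp in the knockout, and it was wider in 611 of the 893 (68.4%) and narrower in 278. At the median the outer edges lay 37 bp further in and the inner edges 19 bp further from the gap. The side with the higher score was the same in 765 of the 853 places without a tie, or 89.7% (87.5 to 91.5).

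The one-to-one pairs, in which 1 Cas9 peak and 1 knockout peak overlapped only each other, showed the narrowing peak by peak. There were 10175, or 70.8% of the Cas9 list and 70.6% of the knockout list. Their median width was 654 bp in Cas9 cells and 572 bp in the knockout, and the median of the ratio was 0.901 (0.896 to 0.906). The knockout peak was narrower in 6968 pairs (68.5%, 67.6 to 69.4), wider in 3162 and equal in 45. It was at least 1.5-fold narrower in 1551, which is 15.2% of the pairs, and at least 1.5-fold wider in 440, which is 4.32%. At 2-fold the numbers were 504 and 134. The pairs stayed in register, with midpoints a median of 49 bp apart. Both edges moved inward by similar amounts, the lower edge by a median of 28 bp and the upper edge with a median shift of -27 bp. The knockout peak lay wholly inside the Cas9 peak in 4260 pairs (41.9%, 40.9 to 42.8), and the Cas9 peak inside the knockout peak in 1302 (12.8%, 12.2 to 13.5).

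Sorting pairs by their width in 1 list selects chance extremes of that list, so both orders were used. With pairs in 5 equal groups by Cas9 width, the median ratio was 1.04 in the narrowest, 0.897 in the next and 0.893 in the widest. In groups by knockout width it was 0.736 in the narrowest and 0.966 in the widest. In the upper 4 groups of either order the ratio was under 1.

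H3K27ac, measured in the same cells and treated in the same way, showed the opposite direction. Its 6704 one-to-one pairs had a median width of 404 bp in Cas9 cells and 453 bp in the knockout, a median ratio of 1.05 (1.05 to 1.06), and 38.9% were narrower in the knockout. Splits and joins of H3K27ac were close in number, at 178 (2.24% of Cas9 peaks) and 176 (1.74% of knockout peaks). At 4876 places where a one-to-one H3K4me3 pair met a one-to-one H3K27ac pair, the ratios were 0.894 (0.889 to 0.901) for H3K4me3 and 1.06 (1.05 to 1.07) for H3K27ac. At 44.9% of these places H3K4me3 was narrower and H3K27ac wider in the knockout, at 28.7% both were narrower, at 17.3% both were wider, and at 8.39% H3K4me3 was wider and H3K27ac narrower. Across these places the ratios of the 2 marks had a Spearman correlation of 0.11. The depth and the enrichment of each library are unknown, so a shift in all widths of a mark and a property of its library cannot be told apart.

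Ranks were mostly kept. Across the 10175 pairs the scores of both lists had a Spearman correlation of 0.86 and the widths one of 0.826. The pairs share chromosome position and antibody, so this is a description. The median rank change, knockout minus Cas9, was -0.813 points, with 54.5% (53.5 to 55.5) of pairs within 10 points. A rank higher by 25 points or more was seen in 393 pairs, 3.86% of all, and one lower by as much in 483, 4.75%. This order turned with ranks among pairs alone, where the shares were 5.28% higher and 5.07% lower. Only 14 pairs stood higher by 50 points and 5 lower. Width and rank moved together only loosely, with a Spearman correlation of 0.231 between the log ratio of widths and the rank change. Of the 3183 pairs within 5 points of their rank, the median ratio of widths was still 0.907 (0.899 to 0.918). At the top of the list, the pair with the highest Cas9 score, on chromosome 5 from 137951331 to 137952657 in Cas9 cells, measured 1327 bp there and 1140 bp in the knockout, at ranks of 100 and 99.9. The third, on chromosome 8 from 87210570 to 87211831, measured 1262 and 1070 bp, at ranks of 100 and 99.9.

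The pairs that lay in H3K27me3 regions of Cas9 cells, called bivalent here, stood apart from the rest in both measures. The name means only that the Cas9 peak shared at least 1 bp with such a region. Whether these places were promoters, or held both marks on the same chromatin, was not tested. There were 1298, and their median width was 536.5 bp in Cas9 cells and 565 bp in the knockout, a median ratio of 1.03 (1.02 to 1.06). The other 8877 had a ratio of 0.889 (0.884 to 0.893). The median rank was 34.5 in Cas9 cells and 44.6 in the knockout for bivalent pairs, and 60.7 and 59.0 for the others, with median changes of 8.72 and -1.76 points. With ranks by width in place of the score, the changes were 7.52 and 0.551 points, so the sign of the change outside H3K27me3 depends on the ranking. A rank higher by 25 points or more was seen in 15.3% (13.4 to 17.3) of bivalent pairs and 2.20% (1.91 to 2.52) of the others, and a lower one in 1.46% (0.939 to 2.27) and 5.23% (4.78 to 5.71). Their edges moved differently too: both lay further out in 29.0% of bivalent pairs and 9.97% of the others, and both further in in 22.7% and 43.8%.

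**Figure D4:**
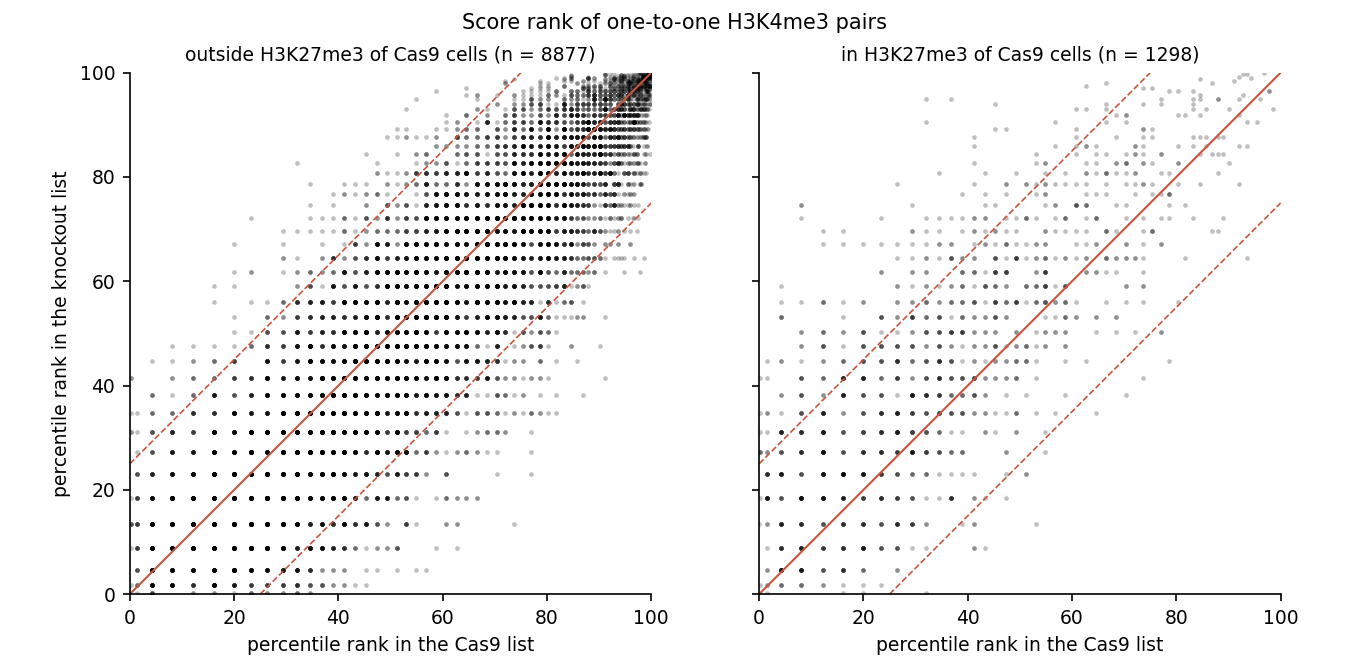
Each point is a one-to-one pair, placed by its percentile rank in the Cas9 list (x axis) and the knockout list (y axis), for pairs outside and inside H3K27me3 regions of Cas9 cells. The solid line marks equal rank and the dashed lines a change of 25 points, which 15.3% of the 1298 bivalent pairs and 2.20% of the 8877 others passed upward.

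Bivalent pairs started lower, and a low rank leaves more room above it, so pairs were also compared at equal mean rank over both lists. In bins of 20 points of mean rank, from low to high, the median rank change of bivalent pairs was 4.57, 8.67, 11.6, 11.9 and 6.99 points. For the other pairs it was -3.39, -5.60, -2.58, -1.24 and -0.231 points. The width ratios ran from 1.17 (1.08 to 1.25) in the lowest bin to 0.987 (0.926 to 1.02) in the highest for bivalent pairs. For the others they were 0.851 (0.824 to 0.875) in the lowest, 0.834 (0.813 to 0.854) in the next and 0.920 (0.912 to 0.927) in the highest. The bivalent pairs thus had the higher value of both measures in each bin, and the intervals of the width ratio met only in the highest. Sorted by Cas9 rank instead, the lowest bin gave changes of 14.9 points for 390 bivalent pairs and 3.12 points for 749 others, and the highest bin 2.18 and -2.53 points. Among pairs within 5 points of their rank, the width ratio was 0.996 (0.944 to 1.02) for 299 bivalent pairs and 0.902 (0.893 to 0.911) for 2884 others.

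**Figure D5:**
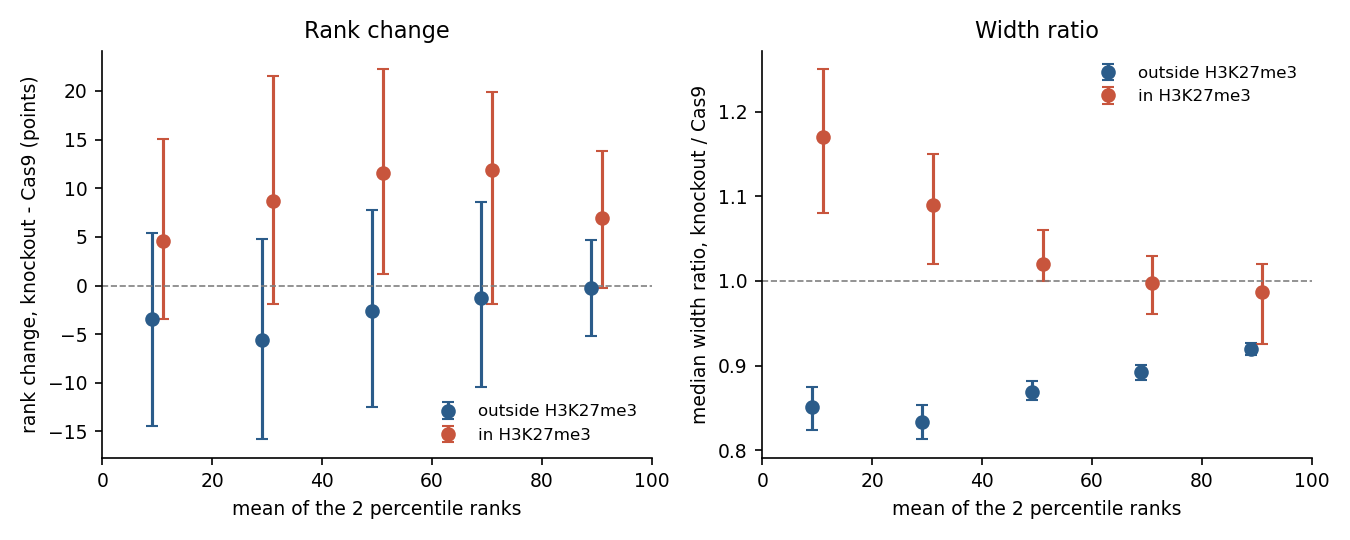
One-to-one pairs in bins of 20 points of the mean of both ranks are shown for pairs in and outside H3K27me3 of Cas9 cells, with the median rank change (left, points, bars from the lower to the upper quartile) and the median width ratio (right, bars are 95% intervals, axis not from 0). The bivalent pairs lie above the others in each bin, with rank changes from 4.57 to 11.9 points against -5.60 to -0.231.

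The same direction was seen where H3K27me3 was still called in the knockout. Of the 1298 bivalent pairs, 112 also overlapped H3K27me3 in the knockout, and these had a width ratio of 1.12 (1.02 to 1.21) and a median rank change of 6.53 points. The 1186 without it in the knockout had 1.03 (1.01 to 1.06) and 8.90 points. It was also seen without H3K27ac. Bivalent pairs without H3K27ac in either kind of cell (n = 701) had a median change of 7.76 points and a width ratio of 1.03. Those with H3K27ac in the knockout alone (n = 502) had 10.9 points and 1.05. With H3K27ac in both kinds of cell (n = 90) the rank change was 6.74 points, but the width ratio was 0.989. Pairs outside H3K27me3 with H3K27ac in both (n = 5345) had a width ratio of 0.896. Pairs outside H3K27me3 that had H3K27ac in the knockout alone (n = 1150) had a median change of -1.24 points. The 305 pairs outside H3K27me3 with H3K27ac in Cas9 cells alone had the narrowest ratio of these groups, 0.825, and a change of -3.75 points.

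Seen from the pairs that differed most, H3K27me3 of Cas9 cells overlapped 50.5% (45.8 to 55.1) of the 440 wider by 1.5-fold and 50.4% (45.5 to 55.3) of the 393 higher by 25 points, beside 12.8% (12.1 to 13.4) of all pairs. It overlapped 8.38% (7.10 to 9.87) of the 1551 narrower by 1.5-fold and 3.93% (2.53 to 6.06) of the 483 lower by 25 points. The median Cas9 rank was 20 in the wider pairs, 32 in the higher, 43.3 in the narrower and 60.7 in the lower. H3K27me3 was more frequent at low Cas9 rank, so the 12.8% is not a baseline at equal rank. It overlapped 390 of 1139 pairs up to rank 20 and 392 of 1813 from 20 to 40. From 40 to 60 it overlapped 295 of 2355, and from 60 to 80 it overlapped 161 of 2397. Both wider and higher were 109 pairs, of which 82 were bivalent, or 75.2% (66.4 to 82.4). H3K27ac in the knockout alone was seen in 34.9% (26.6 to 44.2) of the 109. It was seen in 16.2% of all pairs, 24.1% of the wider and 32.6% of the higher. Both narrower and lower were 184 pairs, of which 9 were bivalent.

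The single pairs with the largest differences followed this division with 1 exception. The largest widening was on chromosome 7, from 358 bp (150645388 to 150645745) in Cas9 cells to 1546 bp (150645139 to 150646684) in the knockout, with ranks of 12.2 and 50.4. The second, on chromosome 5, went from 257 bp (24606534 to 24606790) to 1384 bp (24605544 to 24606927), with ranks of 20 and 56.1. The largest rank gains were on chromosome 10 from 79099934 to 79100789 in the knockout, with ranks of 8.09 and 74.5, and on chromosome 4 from 88583938 to 88584577, with the same ranks. All 4 lay in H3K27me3 of Cas9 cells. The largest narrowing was on chromosome 5, from 2562 bp (113565623 to 113568184) to 425 bp (113567228 to 113567652), with ranks of 38.9 and 31.2. The largest rank loss was on chromosome 9, where a peak of 502 bp at rank 73.7 (70268872 to 70269373) faced one of 180 bp at rank 13.5. Both lay outside H3K27me3 and overlapped H3K27ac in both kinds of cell. The second narrowing, on chromosome 7, from 1739 bp (108542829 to 108544567) to 218 bp, overlapped neither mark. The exception was the third, on chromosome 11, from 1347 bp (119407951 to 119409297) to 215 bp with ranks of 41.1 and 13.5, which overlapped H3K27me3 in both kinds of cell.

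The X chromosome held mostly low-ranking peaks, and more of its Cas9 peaks were alone. Cas9 cells had 351 peaks there and the knockout 305, a ratio of 0.869, while the autosomes ranged from 0.955 on chromosome 17 to 1.07 on chromosome 15. Of the X peaks of Cas9 cells 29.6% (25.1 to 34.6) were alone, above the highest autosome at 17.8%, and the median width ratio of its 202 pairs was 0.811, below the lowest autosome at 0.871. The X peaks had a median rank of 23.3 in the Cas9 list and 18.5 in the knockout list, and 0 of them lay above rank 80 in either list, which by a floor of 3 counts allows a share of up to 0.855% and 0.984%. Up to rank 20 the share of Cas9 peaks alone was 51.2% both on the X (43.7 to 58.6) and on the autosomes (49.4 to 53.0). For knockout peaks up to rank 20 it was lower on the X, at 19.3% (14 to 25.9), than on the autosomes, at 34.1% (32.4 to 35.9). The width ratio of X pairs was not compared at equal rank. Over all pairs it was 0.907 up to a mean rank of 20 and 0.879 from 20 to 40. The X copy number of the cells was not examined.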

How the data were processed

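The submitters' processing notes name SICER 1.1, R 2.14.0, SAMtools, Picard, BWA 0.5.9-r26 and genome build mm9, without saying what each was used for. The authors deposited 1 list of peaks per library, each peak with a score whose meaning is not stated. For H3K4me3 the peak caller and its threshold are, in the sources used here, not given. The lists number their peaks, and 486 numbers of Cas9 cells and 467 of the knockout were not analysed here. The H3K27ac and H3K27me3 lists of the same cells were used for overlaps. Depth is unknown and no input library was used.

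From the deposited lists, overlaps (at least 1 bp), widths, gaps, runs within 2 kb and percentile ranks of the score, with ties at their mean rank, were computed in Python 3.11.15 (scipy 1.17.1, numpy 2.4.6; matplotlib 3.10.9 for figures). Shares carry Wilson 95% intervals and medians order-statistic intervals. Overlaps were tested on simulated data and checked against bedtools 2.31.1. Groups came from the titles. With 1 library per group no test was made.

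Regions named are up to 3 per class, by score, width or rank change, and the windows of 100 kb with the most peaks of one list alone. Gene lists and sequence features could not be applied without an annotation or genome of build mm9. The members and the classes were chosen with earlier results of these data known. The bins of mean rank, the pairs of steady rank, the pairs outside H3K27me3, the H3K27ac pairs, the places pooled within 2 kb, the distances of peaks alone and the windows were added after values had been seen. Alternatives were another overlap rule, the upper 50% of scores, equal numbers of peaks, autosomes alone, lists without peaks in Cas9 antibody regions of neurospheres, other gaps, other rank rules and other averages.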

Additional observations from a re-analysis of the deposited data

How the results depend on the processing

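No paired analysis was possible because each group held 1 library, and for the same reason no replicate could be left out. Of 75 alternative values, 36 moved by less than their counting interval or, for counts, less than 1.5 times. The narrowing and the excess of splits over joins held their direction under each alternative tried for them. The median rank change of pairs outside H3K27me3 had no firm sign: it was -1.76 points, -1.35 with ranks among pairs alone, -2.22 with ties at their lowest rank and 0.551 with ranks by width. The overlapped shares of Cas9 and knockout peaks, 85.4% and 90.2%, were 83.3% and 88.0% when 50% of the shorter peak had to be shared, 87.3% and 88.2% in the upper 50% of scores, 84.2% and 89.4% without regions found with the Cas9 antibody, and 93.3% and 92.8% with peaks joined within 2 kb, where their order turned. The upper 50% of scores gave 125 splits and 35 joins, 8.88% and 10.2% of peaks with a neighbour, and 35.0% and 23.3% of peaks of at least 1 kb. Removing Cas9 antibody regions gave 41.6% and 40.7% with a neighbour, and 15.9% and 9.65% of at least 1 kb. Gaps of at most 1 kb gave 42.1% and 41.7% with a neighbour, and of 5 kb 46.9% and 46.4%. The width ratio was 0.895 in the upper 50% of scores, 0.894 without Cas9 antibody regions, 0.875 as the ratio of the medians, 0.882 from the mean log2 ratio and, added after seeing the data, 0.907 in pairs of steady rank and 0.889 outside H3K27me3. The shares of pairs higher and lower in rank were 21.3% and 24.2% at 10 points, 0.138% and 0.0491% at 50 points, and 4.84% and 6.46% with ranks by width. The share of higher pairs was 5.28% with ranks among pairs alone, which then exceeded the lower share of 5.07%, and the lower share was 5.39% without Cas9 antibody regions. Unknown depth and a score of unstated meaning limit all comparisons of width and rank.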
